A study of Bos taurus with 18 samples.

Results

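Collagen genes were followed across 4 compartments of the cattle ovary: the theca, the interstitial stroma, the stroma close to follicles and the tunica albuginea. The members were all genes whose only symbol in the array's annotation had the form of a collagen chain name, and 42 genes met this rule among 18010 genes with 1 symbol. RefSeq's gene table (assembly ARS-UCD2.0) lists 44 cattle genes of that form, and COL9A1 and COL9A2 were not analysed here. COL5A1 was represented by 2 transcript clusters, each summarising the probes of a transcript region, and the brighter cluster stood for the gene. The fibrillar class had 11 members, the FACIT class 8, the basement membrane class 6, the beaded filament class 5, the transmembrane class 4, and the network class 3. Another 3 genes belonged to the basement membrane zone, and 2 fitted no class.

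Collagens are proteins whose chains wind together into a rope-like helix, and all but the transmembrane class are secreted and then assemble outside the cell. Fibrillar collagens form the tension-bearing fibres, and FACITs (fibril-associated collagens with interrupted helices) attach to the surface of those fibres. Network collagens form lattices, type VI collagen forms beaded filaments around cells, and type IV collagen forms the meshwork of basement membranes. In the ovary the tunica albuginea is the dense fibrous layer under the surface epithelium. The theca is the vascular, steroid-producing layer that surrounds the basement membrane of a growing follicle.

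All animals were non-pregnant cows, with tissue obtained at an abattoir, and the labels give no genotype or treatment. Theca was dissected from healthy antral follicles below 5 mm in diameter, with 1 follicle of 1 animal on each of 6 arrays. The 3 other compartments were cut by laser from stained sections of ovarian cortex, 10 µm thick, with 4 arrays each, and each of those arrays held RNA pooled from different animals. The number of animals in a pool is not given in the sources used here, nor is whether pools shared animals, so p-values among pooled arrays measure only the spread between these arrays. Theca and laser-captured tissue also differed in RNA kit, and compartment, collection, pooling and kit cannot be told apart in a comparison with theca. The source label names thecal tissue for all samples alike, so groups were taken from the sample titles.

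The deposited log2 signals had a median of 4.1 on all 18 arrays, and each array correlated with the others of its group at a mean r of 0.956 to 0.974. A mean below 4.1 can be background, since the values carry no detection calls, and a fold against such a mean may understate the difference. Probes of different genes need not respond alike, so signals of different genes are not compared as levels. In tissue RNA, fewer cells of a type and less RNA per cell cannot be told apart. The labels were checked against marker genes of each cell type. The 5 measured genes of theca steroid cells were all higher in theca than in each other compartment, with a list mean of 8.9 to 10.06 against 2.88 to 3.4, and all 5 lay below the array median outside theca. Endothelial markers had a list mean of 6.05 to 6.41 in theca, 4.56 to 5.57 in interstitial stroma, 4.41 to 4.95 in stroma close to follicles and 4.14 to 4.34 in tunica albuginea. Oocyte markers had list means of 4.09 to 5.74 in stroma close to follicles and of 3.07 to 4.29 elsewhere. The 8 markers of the surface epithelium, which covers the tunica albuginea, had a list mean of 3.24 to 3.88 over all arrays.

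Across the 4 compartments, 22 of the 42 collagen genes differed by limma's F test (52.4%), where 36.4% of all 26773 clusters did. Of these 22 genes, 13 had their highest mean in theca and 7 in tunica albuginea, while COL6A3 was highest in interstitial stroma and COL13A1 in stroma close to follicles. The lowest mean lay in theca for 8 of them and in stroma close to follicles for another 8. The other 20 genes had means from 2.7 to 5.62, and their means differed between compartments by at most 0.88 on the log2 scale. A mean above the array median was reached in some compartment by 27 members, of which 21 were called, and the remaining 15 never reached it, with only COL2A1 called among them. All clusters were not split by signal or by highest compartment, so the 36.4% covers bright and dim clusters alike.

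**Figure D1:**
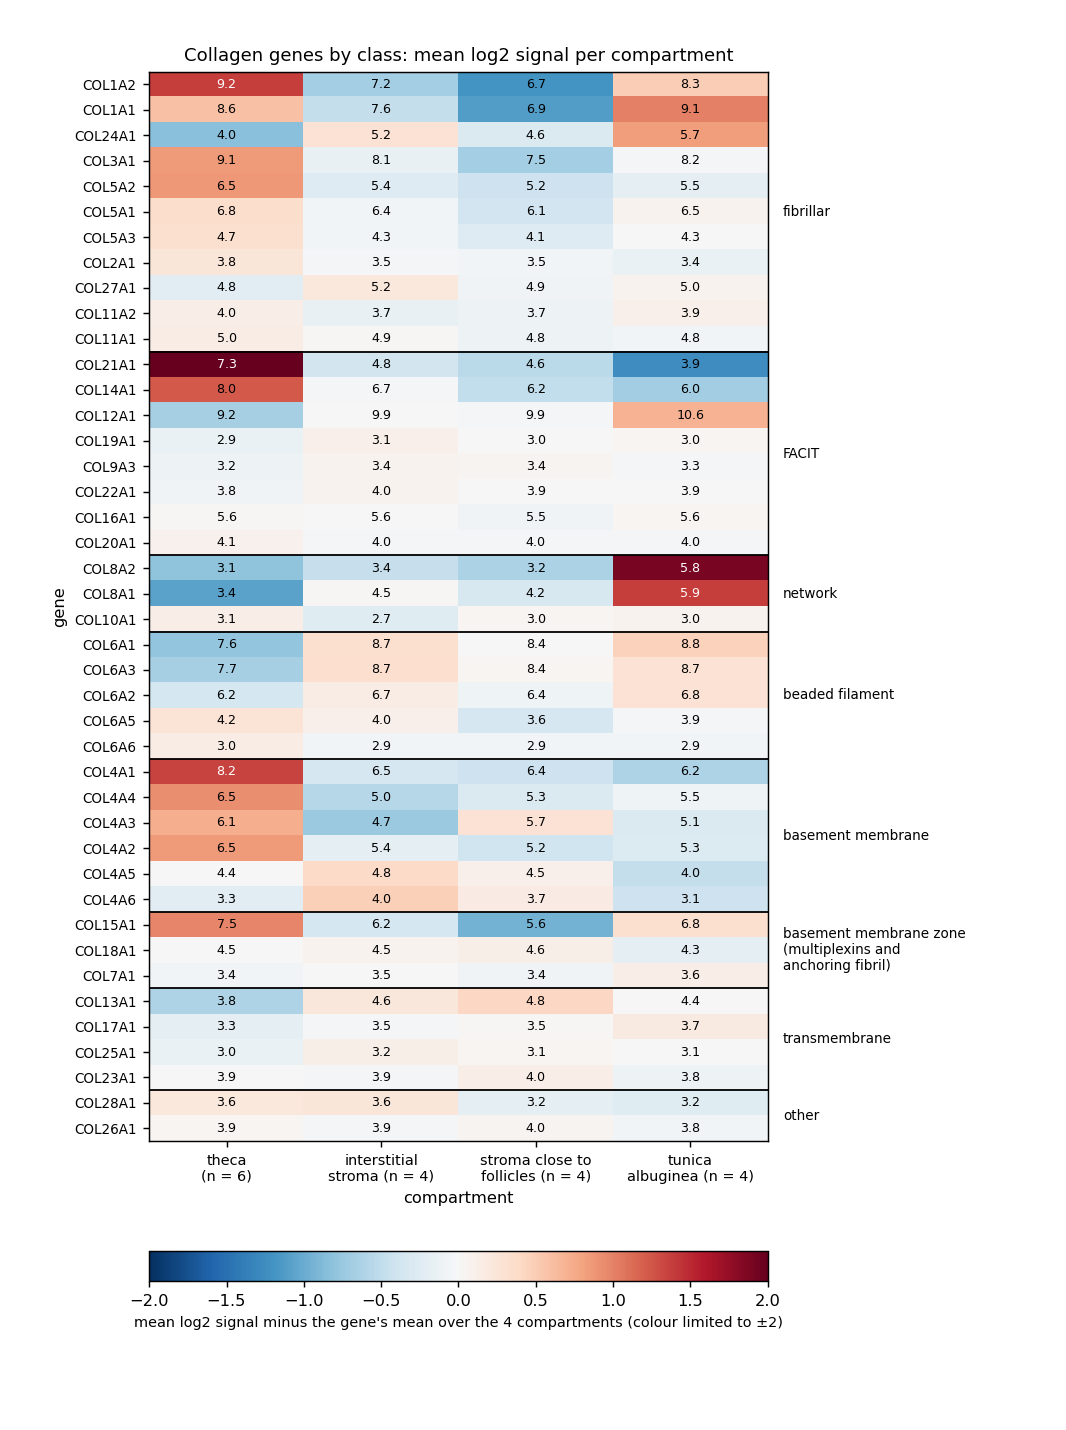
Mean log2 signal of all 42 collagen genes (rows, grouped by class) in the 4 compartments (columns; printed numbers are means, colour is the deviation from the gene's mean over the compartments). Most called fibrillar and basement membrane genes are red in theca, and COL8A1, COL8A2 and COL12A1 are red in tunica albuginea.

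Theca was compared with each laser-captured compartment, to find the collagens whose signal differed in the follicle's outer wall. Against interstitial stroma, 14 collagen genes were higher in theca and 7 lower, together 21 of 42, where 28.9% of all clusters were called, 14.4% higher and 14.6% lower. Against stroma close to follicles, 14 were higher and 6 lower, beside 31.1% of all clusters called, 15.4% higher and 15.6% lower. Against tunica albuginea, 11 were higher and 9 lower, beside 34.4% called, 16.3% higher and 18.1% lower. The median log2 difference of the 42 genes was 0.06, 0.11 and 0.11 in these comparisons, and that of all clusters was -0.025, -0.033 and -0.05. The 3 comparisons share the theca arrays. Of the 11 fibrillar genes, 6, 7 and 4 were higher in the 3 comparisons and 1 lower in each. Of the 6 basement membrane genes, 4, 3 and 4 were higher and none lower. Of the 5 beaded filament genes, 3, 2 and 3 were lower, and 0, 1 and 0 higher (COL6A5).

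**Figure D2:**
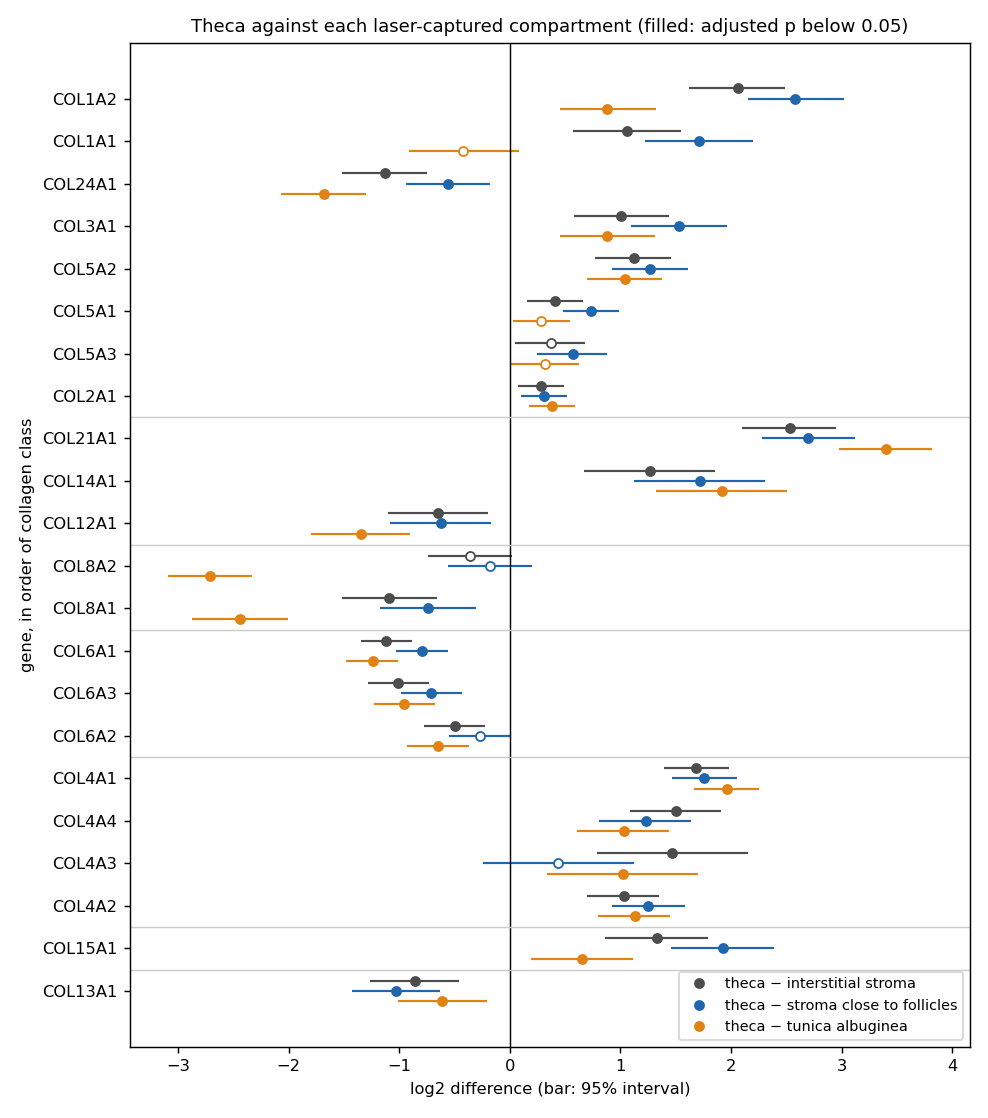
Log2 difference of theca from each laser-captured compartment (x axis) for the 22 collagen genes called by the F test (y axis, by class); bars are 95% intervals and filled points passed an adjusted p of 0.05. The type I, III, V, IV and XV genes lie mostly to the right of 0, and COL24A1, COL12A1 and the type VIII and VI genes to the left.

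The tunica albuginea was compared with both kinds of stroma, to find the collagens whose signal differed in the ovary's fibrous coat. Against interstitial stroma, 4 genes were higher (COL1A1, COL1A2, COL8A1 and COL8A2) and none lower, where 1.52% of all clusters were called and 0.945% were higher. Against stroma close to follicles, COL24A1, COL6A1 and COL15A1 were higher as well, together 7 of 42 with none lower, where 3.8% of all clusters were called and 1.85% were higher. By limma at an unadjusted p below 0.05, 4 members were lower in the first comparison and 2 in the second. The median difference of the 42 genes was 0 and 0.12, and that of all clusters was 0.025 in both. These comparisons share the tunica arrays.

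Between stroma close to follicles and interstitial stroma, limma called none of the 42 genes, where 0.0336% of all clusters were called. At an unadjusted p below 0.05, 8 genes were lower in stroma close to follicles (COL1A1, COL1A2, COL3A1, COL5A1, COL24A1, COL6A1, COL15A1 and COL28A1) and COL4A3 was higher, and the smallest adjusted p was 0.41. The mean was lower in stroma close to follicles for 31 genes and higher for 10. All clusters were not counted at this unadjusted threshold or by direction, so no excess of collagen genes is read from these counts. The median difference was -0.14, beside 0 for all clusters.

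**Figure D3:**
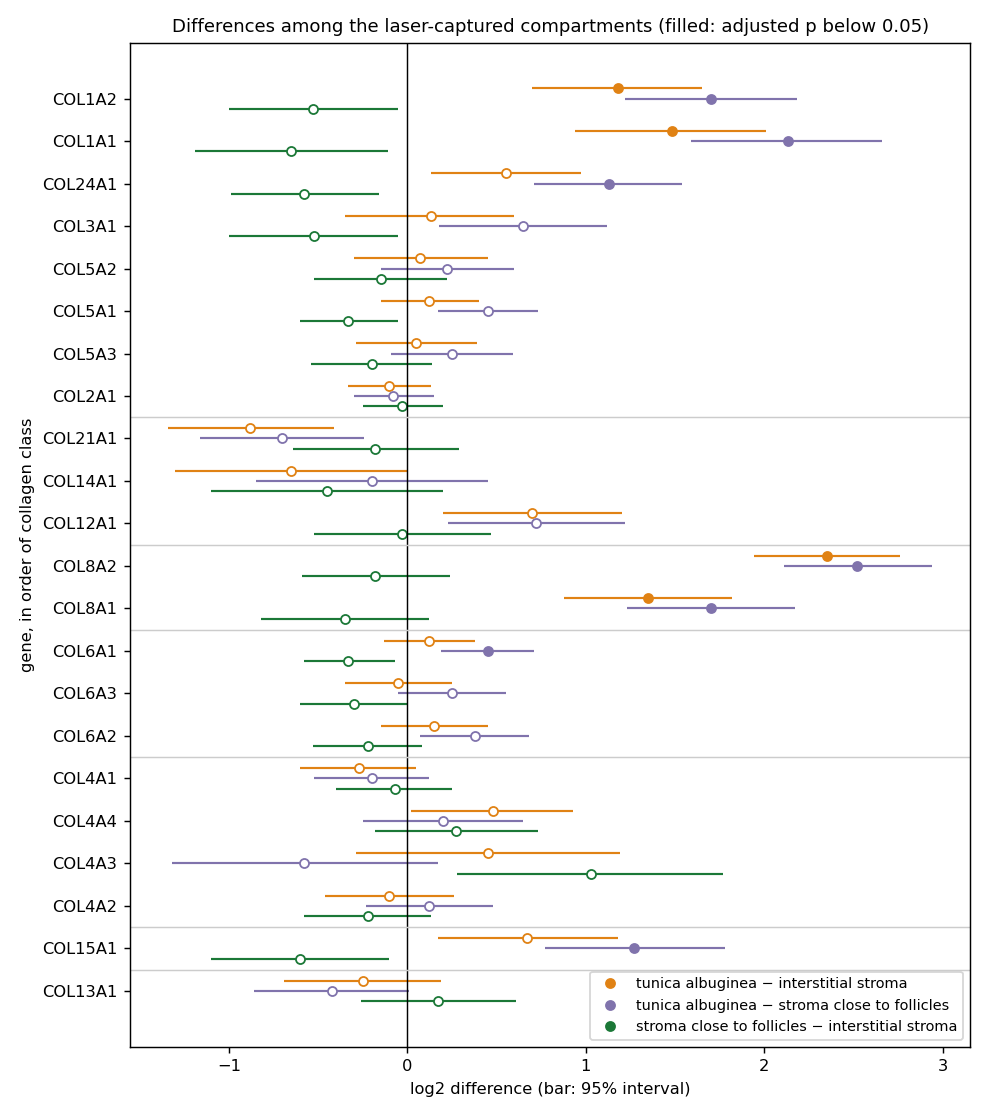
Log2 difference between laser-captured compartments (x axis) for the 22 collagen genes called by the F test (y axis, by class); bars are 95% intervals and filled points passed an adjusted p of 0.05. COL8A2, COL1A1, COL8A1 and COL1A2 lie farthest to the right in the comparisons of tunica albuginea, and no point is filled between the 2 kinds of stroma.

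Type I collagen, the main fibre of dense connective tissue, is built from the products of COL1A1 and COL1A2. COL1A2 had a log2 signal of 9.0 to 9.4 in theca (median 9.25), 6.8, 7.6, 6.8 and 7.5 in interstitial stroma, 7.0, 6.5, 6.4 and 6.7 in stroma close to follicles, and 7.8, 8.5, 8.9 and 8.2 in tunica albuginea. All theca arrays lay above all others, and all tunica arrays above both kinds of stroma, which overlapped. Theca was higher by 2.06 ± 0.21 (SE; 4.17-fold, adjusted p = 8.9e-07) than interstitial stroma and by 2.58 ± 0.21 (5.99-fold, adjusted p = 5.7e-08) than stroma close to follicles. The gap to tunica albuginea was smaller, at 0.88 ± 0.21 (adjusted p = 0.0029). Tunica albuginea in turn was 2.26-fold above interstitial stroma (log2 difference 1.18 ± 0.23, adjusted p = 0.011) and 3.25-fold above stroma close to follicles (1.70 ± 0.23, adjusted p = 0.00021).

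COL1A1 did not share this order. Its signal was 8.3 to 9.0 in theca (median 8.65), 7.3, 7.8, 7.1 and 8.1 in interstitial stroma, 7.3, 6.5, 6.9 and 7.0 in stroma close to follicles, and 8.5, 9.3, 9.6 and 8.8 in tunica albuginea. Theca and tunica albuginea overlapped, and both lay above all 8 stroma arrays. The mean of theca was 0.42 ± 0.23 below that of tunica albuginea, which was not called (adjusted p = 0.18, 95% interval of the difference -0.91 to 0.08). Tunica albuginea was 2.78-fold above interstitial stroma (1.48 ± 0.26, adjusted p = 0.0049) and 4.36-fold above stroma close to follicles (2.13 ± 0.26, adjusted p = 9.6e-05). Fitted on the arrays of these compartments alone, tunica against interstitial stroma gave an adjusted p of 0.055 for COL1A1 and 0.095 for COL1A2. Within single arrays, the COL1A1 signal minus the COL1A2 signal was -0.8 to -0.4 in theca and 0.6 to 0.8 in tunica albuginea, with 0.2 to 0.6 in interstitial stroma and 0 to 0.5 in stroma close to follicles. The probes of the 2 genes need not respond alike, so these values show only that the balance of signals was not the same in theca and tunica albuginea.

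COL3A1, which encodes the fine reticular fibres of distensible tissues, was highest in theca. It measured 8.8 to 9.7 in theca (median 9.0), 7.9, 8.2, 7.8 and 8.4 in interstitial stroma, 7.8, 7.3, 7.2 and 7.9 in stroma close to follicles, and 7.7, 8.6, 8.4 and 8.1 in tunica albuginea. Theca lay above every other array, and the 3 laser-captured compartments overlapped one another. Its excess was 1.01 ± 0.20 over interstitial stroma, 1.53 ± 0.20 over stroma close to follicles and 0.88 ± 0.20 over tunica albuginea (adjusted p = 0.0011, 1.8e-05 and 0.0027). Tunica albuginea did not differ detectably from interstitial stroma in COL3A1 (0.13 ± 0.22, adjusted p = 0.88, 95% interval -0.35 to 0.6).

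Type V collagen sits inside type I fibrils and limits their width, and 3 of its genes were measured. COL5A2 had signals of 6.0 to 6.7 in theca (median 6.6), 5.2, 5.5, 5.6 and 5.3 in interstitial stroma, 5.5, 5.0, 5.0 and 5.5 in stroma close to follicles, and 5.5, 5.6, 5.7 and 5.1 in tunica albuginea. Every theca array was above every other array. The difference was 1.12 ± 0.16, 1.27 ± 0.16 and 1.04 ± 0.16 against the 3 compartments in that order (adjusted p = 5.3e-05, 1.2e-05 and 8.4e-05). In RefSeq's ARS-UCD2.0 gene order COL5A2 and COL3A1 are neighbours with no protein-coding gene between them.

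COL5A1 moved less. It measured 6.6 to 7.1 in theca (median 6.85), 6.3, 6.6, 6.2 and 6.6 in interstitial stroma, 6.1, 6.2, 5.9 and 6.2 in stroma close to follicles, and 6.5, 6.6, 6.4 and 6.7 in tunica albuginea. Theca stood clear of stroma close to follicles, by 0.73 ± 0.12 (adjusted p = 0.00015), and overlapped the other 2 compartments. Its difference from interstitial stroma (0.41 ± 0.12, adjusted p = 0.016) was lost without interstitial replicate 1 (0.37, adjusted p = 0.055) or 3 (0.33, adjusted p = 0.067), after quantile normalization again (0.28, adjusted p = 0.095), and with the mean of both clusters (0.2, adjusted p = 0.12), where the dimmer cluster had means of 3.83 to 4.02 and was not called in any comparison. COL5A3 had 4.5 to 4.8 in theca (median 4.7), 4.1, 4.7, 4.3 and 4.1 in interstitial stroma, 3.9, 3.9, 4.4 and 4.2 in stroma close to follicles, and 4.0, 4.4, 4.3 and 4.7 in tunica albuginea. Only stroma close to follicles was separate from theca, with a difference of 0.57 ± 0.15 (adjusted p = 0.0074).

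COL24A1, a minor fibrillar collagen associated in mouse with developing bone and cornea, had the reverse pattern. It measured 3.6 to 4.4 in theca (median 4.1), 5.0, 5.3, 5.5 and 4.8 in interstitial stroma, 4.5, 4.6, 4.9 and 4.3 in stroma close to follicles, and 5.8, 5.3, 5.8 and 5.9 in tunica albuginea. Theca was near the array median, and below both tunica albuginea and interstitial stroma without overlap. It was 3.21-fold below tunica albuginea (-1.68 ± 0.18, adjusted p = 1.6e-06) and 2.19-fold below interstitial stroma (-1.13 ± 0.18, adjusted p = 0.00013). The difference from stroma close to follicles, -0.56 ± 0.18 (adjusted p = 0.026) with overlapping arrays, was lost without theca replicate 4 (adjusted p = 0.055) or 5 (0.058), or stroma replicate 2 (0.054) or 3 (0.096). Tunica albuginea was above stroma close to follicles by 1.13 ± 0.20 (adjusted p = 0.0031). The eighth called fibrillar gene, COL2A1 of cartilage, was higher in theca by 0.28 to 0.38, with all 4 means between 3.4 and 3.78 and so within the range of background. The 3 fibrillar genes not called by the F test, COL11A1, COL11A2 and COL27A1, had means of 3.67 to 5.18.

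**Figure D4:**
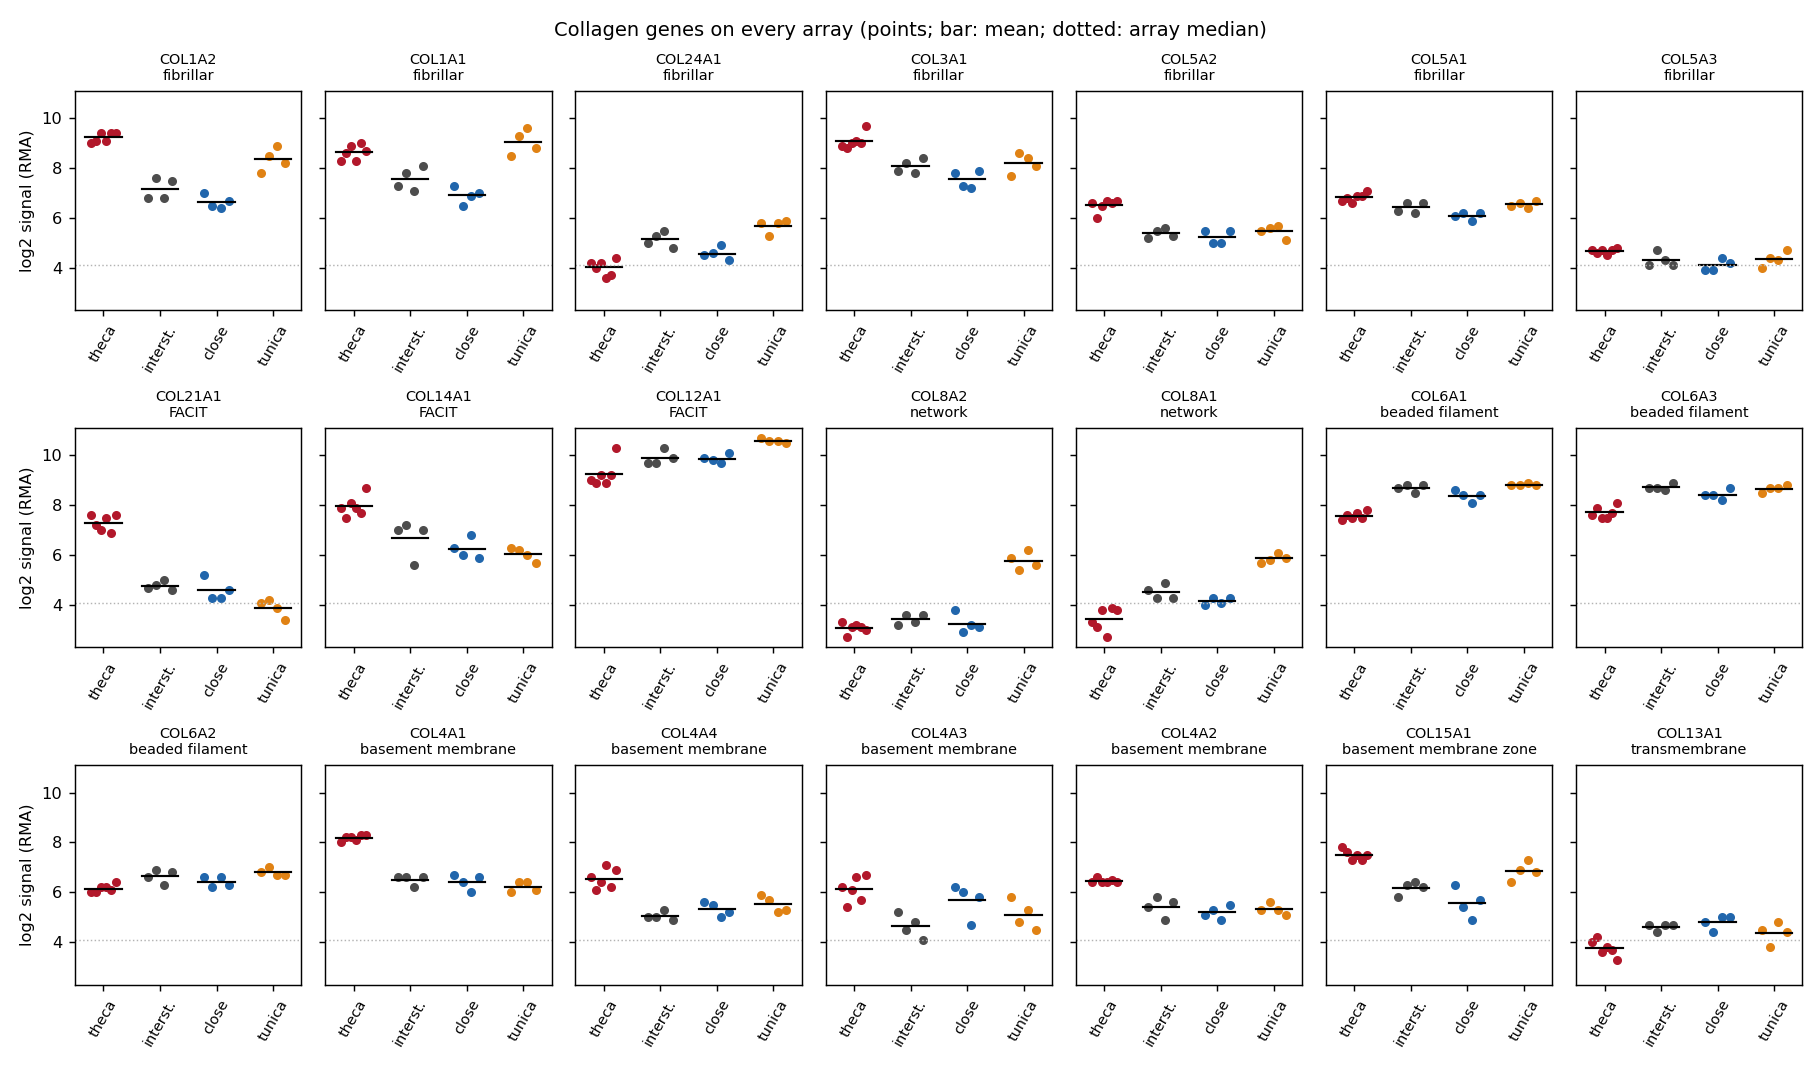
Log2 signal (y axis) of 21 collagen genes on every array (points) by compartment (x axis), with the mean as a bar and the array median of 4.1 dotted. Theca stands above every other array for COL1A2, COL3A1, COL5A2, COL21A1, COL14A1, COL4A1, COL4A2 and COL4A4, and tunica albuginea stands above every other array for COL8A1, COL8A2 and COL12A1.

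Among the FACITs, COL21A1 had the widest range of compartment means of all 42 collagen genes. Type XXI collagen is a small FACIT described in human blood vessel walls. The signal was 6.9 to 7.6 in theca (median 7.35), 4.7, 4.8, 5.0 and 4.6 in interstitial stroma, 5.2, 4.3, 4.3 and 4.6 in stroma close to follicles, and 4.1, 4.2, 3.9 and 3.4 in tunica albuginea. Theca was far above the rest, and the tunica arrays lay below both kinds of stroma. Theca exceeded interstitial stroma 5.76-fold (2.53 ± 0.20, adjusted p = 6.1e-08), stroma close to follicles 6.5-fold (2.70 ± 0.20, adjusted p = 2.4e-08) and tunica albuginea 10.6-fold (3.40 ± 0.20, adjusted p = 1.1e-09). The tunica mean of 3.9 was below the array median and may be background, so the 10.6-fold ratio and the difference from stroma may be understated. The tunica's difference from interstitial stroma, -0.88 ± 0.22, had an adjusted p of 0.053, which was 0.027 without stroma close to follicles replicate 1 and 0.049 without tunica replicate 2.

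COL14A1, a FACIT that binds fibril surfaces and regulates their growth, followed the same order at a smaller scale. It measured 7.5 to 8.7 in theca (median 7.9), 7.0, 7.2, 5.6 and 7.0 in interstitial stroma, 6.3, 6.0, 6.8 and 5.9 in stroma close to follicles, and 6.3, 6.2, 6.0 and 5.7 in tunica albuginea. Theca did not overlap with any other compartment. The differences were 1.27 ± 0.28, 1.72 ± 0.28 and 1.92 ± 0.28 (adjusted p = 0.0024, 0.00016 and 4.6e-05). Interstitial replicate 3 stood apart at 5.6, below 7.0 on the next array of its group, and without it tunica albuginea was lower than interstitial stroma by -1.02 (adjusted p = 0.047), against -0.65 ± 0.31 (adjusted p = 0.39) with it.

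COL12A1, the FACIT of tendon and other load-bearing tissue, was highest in the tunica. Its signal was 8.9 to 10.3 in theca (median 9.1), 9.7, 9.7, 10.3 and 9.9 in interstitial stroma, 9.9, 9.8, 9.7 and 10.1 in stroma close to follicles, and 10.7, 10.6, 10.6 and 10.5 in tunica albuginea. The tunica arrays lay above all others, and theca overlapped the stroma through its replicate 6 alone. Theca was 2.55-fold below tunica albuginea (-1.35 ± 0.22, adjusted p = 0.0001). It was also below interstitial stroma (-0.65 ± 0.22, adjusted p = 0.03) and stroma close to follicles (-0.62 ± 0.22, adjusted p = 0.035). These last calls were lost under 7 and 9 of 26 alternatives, most of them without a single array, with adjusted p up to 0.11 and 0.1. Without theca replicate 6 the same differences were -0.86 (adjusted p = 0.00012) and -0.83 (adjusted p = 0.00015), and tunica albuginea was then called above interstitial stroma (0.7, adjusted p = 0.016) and above stroma close to follicles (0.72, adjusted p = 0.0067), which it was not with all arrays (adjusted p = 0.18 and 0.11). The other 5 FACIT genes had means of 2.88 to 5.62 and differed between compartments by at most 0.24.

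Type VIII collagen forms the hexagonal lattice beneath the corneal endothelium in human and mouse and is also made by vessel wall cells. Both of its genes had more signal in tunica albuginea than in each other compartment. COL8A2 measured 2.7 to 3.3 in theca (median 3.1), 3.2, 3.6, 3.3 and 3.6 in interstitial stroma, 3.8, 2.9, 3.2 and 3.1 in stroma close to follicles, and 5.9, 5.4, 6.2 and 5.6 in tunica albuginea. Only the tunica arrays were above the array median, and the others overlapped in the range of background. Tunica albuginea was 6.54-fold above theca (log2 difference of theca -2.71 ± 0.18, adjusted p = 4.5e-09), 5.1-fold above interstitial stroma (2.35 ± 0.20, adjusted p = 8.3e-06) and 5.76-fold above stroma close to follicles (2.52 ± 0.20, adjusted p = 3.7e-06). The means of 3.07, 3.42 and 3.25 in theca, interstitial stroma and stroma close to follicles may be background, so these folds of signal may be understated.

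COL8A1 had signals of 2.7 to 3.9 in theca (median 3.55), 4.6, 4.3, 4.9 and 4.3 in interstitial stroma, 4.0, 4.3, 4.1 and 4.3 in stroma close to follicles, and 5.7, 5.8, 6.1 and 5.9 in tunica albuginea. Theca was lowest, the stroma arrays lay in between and the tunica arrays highest, with no overlap between these 3 levels. Tunica albuginea exceeded interstitial stroma 2.55-fold (1.35 ± 0.22, adjusted p = 0.0038) and stroma close to follicles 3.25-fold (1.70 ± 0.22, adjusted p = 0.00019). Theca was 5.43-fold below tunica albuginea (-2.44 ± 0.20, adjusted p = 7.1e-08), and below the 2 kinds of stroma by -1.09 ± 0.20 and -0.74 ± 0.20 (adjusted p = 0.00055 and 0.0098). All theca arrays were below the array median, so the theca level may be background and these differences may be understated. COL10A1, the network collagen of growth cartilage, had means of 2.7 to 3.08. It was called only in theca against interstitial stroma, by 0.38 ± 0.13 (adjusted p = 0.035), with both means below the array median.

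All 10 listed endothelial markers were measured, and tunica albuginea had the lowest list means. Against interstitial stroma 4 of them were lower in tunica albuginea and against stroma close to follicles 2, with none called higher, where 1.52% and 3.8% of all clusters were called. ERG, an endothelial transcription factor, was not called and had means of 6.32 in the tunica, 6.05 in interstitial stroma and 5.68 in stroma close to follicles. In the tunica 6 of the 10 had means below the array median, PECAM1, CDH5 and VWF among them. The fibroblast list (7 of 7 measured) had means of 8.76 to 9.21 in tunica albuginea, 8.6 to 9.21 in interstitial stroma, 8.6 to 8.71 in stroma close to follicles and 8.13 to 8.91 in theca. Of these fibroblast genes 2 were higher in the tunica than in interstitial stroma and 3 higher than in stroma close to follicles, beside 0.945% and 1.85% of all clusters. The part of fibroblast share in the tunica's collagen differences was not tested.

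Type VI collagen forms filaments close to the cell surface from the products of COL6A1, COL6A2 and COL6A3, and all 3 were low in theca. COL6A1 measured 7.4 to 7.8 in theca (median 7.55), 8.7, 8.8, 8.5 and 8.8 in interstitial stroma, 8.6, 8.4, 8.1 and 8.4 in stroma close to follicles, and 8.8, 8.8, 8.9 and 8.8 in tunica albuginea. No theca array reached any other array. Theca was lower by -1.12 ± 0.11, -0.79 ± 0.11 and -1.24 ± 0.11 than the 3 compartments in that order (adjusted p = 8.4e-07, 3.2e-05 and 1.8e-07). Tunica albuginea was 0.45 ± 0.12 above stroma close to follicles at an adjusted p of 0.047. That call was lost under 20 of the 26 alternatives, including the omission of each of the 4 tunica arrays in turn. Over all 26, the adjusted p ranged from 0.036 to 0.16.

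COL6A3 had 7.5 to 8.1 in theca (median 7.65), 8.7, 8.7, 8.6 and 8.9 in interstitial stroma, 8.4, 8.4, 8.2 and 8.7 in stroma close to follicles, and 8.5, 8.7, 8.7 and 8.8 in tunica albuginea. Again the theca arrays were all below the rest. The differences were -1.01 ± 0.13, -0.71 ± 0.13 and -0.96 ± 0.13 (adjusted p = 1.7e-05, 0.00047 and 2.2e-05), and none of the comparisons among laser-captured tissue was called. COL6A2, next to COL6A1 in RefSeq's gene order, measured 6.0 to 6.4 in theca (median 6.15), 6.6, 6.9, 6.3 and 6.8 in interstitial stroma, 6.6, 6.2, 6.6 and 6.3 in stroma close to follicles, and 6.8, 7.0, 6.7 and 6.7 in tunica albuginea. Theca overlapped both kinds of stroma but not tunica albuginea. Its differences were smaller than those of COL6A1, -0.50 ± 0.13 against interstitial stroma and -0.65 ± 0.13 against tunica albuginea (adjusted p = 0.0079 and 0.00091), and -0.27 ± 0.13 against stroma close to follicles was not called (adjusted p = 0.13). COL6A5 and COL6A6, neighbours of each other that encode alternative chains, had means of 2.85 to 4.2, and COL6A5 was called once, 0.6 ± 0.20 higher in theca than in stroma close to follicles (adjusted p = 0.031).

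Basement membrane type IV collagen is assembled from 3 gene pairs, each lying side by side in RefSeq's gene order: COL4A1 with COL4A2, COL4A3 with COL4A4, and COL4A5 with COL4A6. The first pair makes the network found in nearly all basement membranes, vessels included. COL4A1 had signals of 8.0 to 8.3 in theca (median 8.2), 6.6, 6.6, 6.2 and 6.6 in interstitial stroma, 6.7, 6.4, 6.0 and 6.6 in stroma close to follicles, and 6.0, 6.4, 6.4 and 6.1 in tunica albuginea. Theca lay more than a log2 unit above every other array, and the others overlapped. The excess was 3.21-fold (1.68 ± 0.14, adjusted p = 1e-07), 3.38-fold (1.76 ± 0.14, adjusted p = 5.1e-08) and 3.89-fold (1.96 ± 0.14, adjusted p = 1.1e-08).

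COL4A2 measured 6.4 to 6.6 in theca (median 6.4), 5.4, 5.8, 4.9 and 5.6 in interstitial stroma, 5.1, 5.3, 4.9 and 5.5 in stroma close to follicles, and 5.3, 5.6, 5.3 and 5.1 in tunica albuginea. As with its partner, theca was separate and the laser-captured arrays overlapped. It was higher in theca by 1.03 ± 0.16, 1.25 ± 0.16 and 1.13 ± 0.16 (adjusted p = 8e-05, 8.6e-06 and 2.4e-05).

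The second pair is known from specialised basement membranes such as that of the kidney glomerulus. COL4A4 had 6.1 to 7.1 in theca (median 6.5), 5.0, 5.0, 5.3 and 4.9 in interstitial stroma, 5.6, 5.5, 5.0 and 5.2 in stroma close to follicles, and 5.9, 5.7, 5.2 and 5.3 in tunica albuginea. Theca was above all other arrays, by 1.5 ± 0.20, 1.23 ± 0.20 and 1.03 ± 0.20 (adjusted p = 1.7e-05, 0.00012 and 0.00057). COL4A3 measured 5.4 to 6.7 in theca (median 6.15), 5.2, 4.5, 4.8 and 4.1 in interstitial stroma, 6.2, 6.0, 4.7 and 5.8 in stroma close to follicles, and 5.8, 4.8, 5.3 and 4.5 in tunica albuginea. In stroma close to follicles 3 of 4 arrays lay within the theca range, whereas interstitial stroma was entirely below theca.

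Theca exceeded interstitial stroma in COL4A3 by 1.47 ± 0.32 (adjusted p = 0.0022), but not detectably stroma close to follicles (0.44 ± 0.32, adjusted p = 0.33, 95% interval -0.24 to 1.12). Its difference from tunica albuginea, 1.02 ± 0.32 (adjusted p = 0.021), was lost without tunica replicate 2 (0.92, adjusted p = 0.063) or 4 (0.82, adjusted p = 0.083). Stroma close to follicles was 1.03 ± 0.35 above interstitial stroma, with a 95% interval of 0.28 to 1.77 and an adjusted p of 0.41. The oocyte list, measured for 7 of 7 genes, had means of 5.43, 5.74, 4.09 and 4.46 on the stroma close to follicles arrays in order of replicate number, with GDF9 and DDX4 below the array median. All 7 were higher there than in tunica albuginea, where 3.8% of all clusters were called in either direction. COL4A3 itself was not called in that comparison (tunica albuginea minus stroma close to follicles -0.58). Against interstitial stroma, whose oocyte list means were 3.74 to 4.29, none of the 7 was called, beside 0.0336% of all clusters. Within stroma close to follicles, replicate 3 had the lowest value of both the list and COL4A3. The part of follicle cells in the COL4A3 signal was not tested.

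The third pair, COL4A5 and COL4A6, was not called in any comparison. COL4A5 measured 3.9 to 5.1 in theca (median 4.4), 4.8, 4.8, 4.2 and 5.5 in interstitial stroma, 4.3, 4.3, 5.3 and 4.2 in stroma close to follicles, and 3.8, 4.2, 3.6 and 4.2 in tunica albuginea. COL4A6 had means of 3.15 to 4.03, below the array median throughout. The compartments overlapped in COL4A5, tunica albuginea meeting both kinds of stroma at 4.2.

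COL15A1 encodes a multiplexin that links basement membranes to the fibres around them, in vessels and muscle above all. It measured 7.3 to 7.8 in theca (median 7.5), 5.8, 6.3, 6.4 and 6.2 in interstitial stroma, 6.3, 5.4, 4.9 and 5.7 in stroma close to follicles, and 6.4, 6.9, 7.3 and 6.8 in tunica albuginea. Theca was above both kinds of stroma and touched the tunica at 7.3, and the tunica arrays were above stroma close to follicles. Theca was 2.51-fold above interstitial stroma (1.33 ± 0.22, adjusted p = 0.00018) and 3.8-fold above stroma close to follicles (1.93 ± 0.22, adjusted p = 3.1e-06). Tunica albuginea was 2.42-fold above stroma close to follicles (1.27 ± 0.24, adjusted p = 0.0048), which gave an adjusted p of 0.071 when only these arrays were fitted. The call of theca over tunica albuginea (0.65 ± 0.22, adjusted p = 0.028) was lost without theca replicate 1 (adjusted p = 0.059), without tunica replicate 1 (0.11), 2 (0.05) or 4 (0.061), and after quantile normalization again (0.47, adjusted p = 0.11). COL18A1 and COL7A1, of the same zone, had means of 3.4 to 4.58 and were not called.

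Most endothelial and granulosa cell markers were higher in theca, as were COL4A1, COL4A2, COL4A4 and COL15A1. Of the 10 endothelial markers 7 were higher in theca than in interstitial stroma, 8 than in stroma close to follicles and 9 than in tunica albuginea, beside 14.4%, 15.4% and 16.3% of all clusters. Of the 7 granulosa cell markers 5 were higher in each comparison, and 1, 1 and 0 were lower. Their list means were 5.13 to 5.64 in theca against 3.56 to 3.94 elsewhere. The theca means were 7.52 for INHA, 7.6 for INHBA and 7.23 for FST, but 4.38 for FSHR and AMH, near the array median. CYP19A1 and FOXL2 lay below the array median in theca too. FOXL2 was the lower one, with a mean of 2.85 in theca against 3.38 in interstitial stroma and 3.58 in stroma close to follicles. The smooth muscle and pericyte list, measured for 10 of 11 genes, had list means of 5.14 to 5.71 in theca and 4.98 to 6.11 elsewhere, and its members differed in direction. In theca 2, 4 and 5 of the 10 were higher and 3, 3 and 4 lower than in the interstitial stroma, the stroma close to follicles and the tunica albuginea. The pericyte genes RGS5 and NOTCH3 were higher in theca in each comparison, RGS5 with a mean of 8.23 against 6.5, 5.02 and 3.72 and NOTCH3 with 5.6 against 4.4, 4.1 and 3.85. The smooth muscle genes MYH11, CNN1 and DES were lower in each, MYH11 with 7.28 against 9.65, 9.67 and 9.43. Against interstitial stroma, RGS5 and NOTCH3 were the only members of the list called higher. ABCC9 (4.73 in theca against 4.53), KCNJ8 (4.18 against 4.1), MCAM (4.53 against 4.2) and CSPG4 (3.88 against 4.25) were not called there. COL15A1 was above stroma close to follicles in tunica albuginea, where the endothelial list was lowest. The part of endothelial cells, granulosa cells, pericytes and smooth muscle in the theca differences was not tested.

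COL13A1, a transmembrane collagen of cell adhesion sites, was low in theca. Its signal was 3.3 to 4.2 in theca (median 3.75), 4.7, 4.4, 4.7 and 4.7 in interstitial stroma, 4.8, 4.4, 5.0 and 5.0 in stroma close to follicles, and 4.5, 3.8, 4.8 and 4.4 in tunica albuginea. Theca was below all stroma arrays and overlapped the tunica. It was lower by -0.86 ± 0.19 than interstitial stroma, by -1.03 ± 0.19 than stroma close to follicles and by -0.61 ± 0.19 than tunica albuginea (adjusted p = 0.0023, 0.00045 and 0.019). The last call was lost without tunica replicate 1 (adjusted p = 0.054) or 3 (0.085). COL17A1, COL23A1 and COL25A1 had means of 2.97 to 4.0, below the array median, and COL17A1 of epithelial anchoring complexes was called once, -0.36 ± 0.10 in theca against tunica albuginea (adjusted p = 0.011). COL26A1 and COL28A1 had means of 3.17 to 3.95 and were not called.

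Genes that modify, export, cleave, cross-link, degrade or bind collagen were examined in 6 lists with 57 measured members. Theca was higher for 23 and lower for 6 of them against interstitial stroma, higher for 23 and lower for 7 against stroma close to follicles, and higher for 17 and lower for 13 against tunica albuginea, where 28.9%, 31.1% and 34.4% of all clusters were called. The tunica was higher for 8 against interstitial stroma and for 13 against stroma close to follicles, and lower for none, where 1.52% and 3.8% of all clusters were called. At an unadjusted p below 0.05 limma had 2 and 3 members lower in the tunica in these comparisons. It called none between the 2 kinds of stroma, where 9 members had an unadjusted p below 0.05, 8 of them lower in stroma close to follicles.

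Hydroxylases and glycosyltransferases, which prepare collagen chains for folding, were higher in theca for 9, 8 and 7 of 13 genes against the interstitial stroma, the stroma close to follicles and the tunica albuginea, and lower for 1, 1 and 2. The shares of all clusters were 14.4%, 15.4% and 16.3% higher and 14.6%, 15.6% and 18.1% lower. P4HB, a subunit of prolyl hydroxylase, had a mean of 9.02 in theca against 7.3, 7.38 and 7.78 in these compartments, a log2 excess of 1.72 ± 0.14, 1.64 ± 0.14 and 1.24 ± 0.14. COLGALT2, which adds galactose to hydroxylysine, stood at 4.62 in theca and at 2.88 to 3.75 elsewhere, below the array median. PLOD2, the lysyl hydroxylase of the ends of the chains, went the other way, at 5.35 in theca against 6.62, 6.45 and 6.8 (-1.27 ± 0.17, -1.10 ± 0.17 and -1.45 ± 0.17, all called). Among folding and export genes, 4 of 10 were higher in theca and 1 lower in each comparison, beside the same shares of all clusters. FKBP14, a prolyl isomerase for procollagen, was 4.17-fold, 4.09-fold and 3.82-fold higher in theca. MIA3, which loads procollagen into transport carriers, was higher by 0.90 ± 0.12 to 1.10 ± 0.12. FKBP10 was higher in theca and also in the tunica than in stroma close to follicles (1.2 ± 0.25 and 1.05 ± 0.28), the latter at an adjusted p of 0.042 that was lost under 12 alternatives.

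Of the 8 genes of propeptide cleavage, 4, 4 and 3 were higher in theca and 0, 0 and 2 lower in the 3 comparisons. The shares of all clusters were 14.4%, 15.4% and 16.3% higher and 14.6%, 15.6% and 18.1% lower. In the tunica 3 genes were higher than in each kind of stroma, beside 0.945% (interstitial) and 1.85% (close to follicles) of all clusters. ADAMTS2, a procollagen proteinase, had means of 4.87 in theca, 4.55 in tunica albuginea, 3.83 in interstitial stroma and 3.65 in stroma close to follicles, with theca and tunica each called above both kinds of stroma. Both stroma means lay below the array median and may be background, so these differences may be understated. The calls of ADAMTS2 were not followed under the alternatives. The proteinases BMP1 and ADAMTS3 were higher in theca than in each other compartment, BMP1 by 1.29 ± 0.18, 1.72 ± 0.18 and 1.32 ± 0.18 and ADAMTS3 by 1.15 ± 0.19, 0.73 ± 0.19 and 1.38 ± 0.19. PCOLCE2, an enhancer of BMP1, had a mean of 7.35 in tunica albuginea against 5.02 in theca, 5.47 in interstitial stroma and 5.3 in stroma close to follicles. The tunica was 5.04-fold above theca (adjusted p = 7.8e-08), 3.67-fold above interstitial stroma (adjusted p = 0.00017) and 4.14-fold above stroma close to follicles (adjusted p = 3.2e-05). In the cross-linking list, 3, 3 and 2 of 7 genes were higher in theca and 0, 0 and 2 lower in the 3 comparisons, beside the same shares of all clusters for theca. In the tunica 3 and 5 were higher than in interstitial stroma and stroma close to follicles, beside 0.945% and 1.85% of all clusters. AEBP1, a collagen-binding protein of fibril assembly, was higher in the tunica than in these by 1.2 ± 0.19 and 1.63 ± 0.19. LOX, which starts the cross-links, was highest in theca (8.23), then tunica albuginea (6.8), interstitial stroma (5.95) and stroma close to follicles (5.2). Theca was 4.87-fold, 8.19-fold and 2.7-fold above the interstitial stroma, the stroma close to follicles and the tunica albuginea, and the tunica was 3.03-fold above stroma close to follicles (adjusted p = 0.0041). LOXL2 was 2.96-fold higher in theca and 3.48-fold higher in tunica albuginea than in stroma close to follicles, whose mean of 3.4 lay below the array median and may be background.

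Of the 9 genes of collagen breakdown and uptake, 4 were lower in theca in each comparison, beside 14.6%, 15.6% and 18.1% of all clusters. In the same comparisons 1, 1 and 0 were higher, beside 14.4%, 15.4% and 16.3% of all clusters. MMP14, a membrane-bound collagenase, had a mean of 6.45 in theca against 8.03, 8.05 and 8.68, a difference of -1.57 ± 0.15, -1.60 ± 0.15 and -2.22 ± 0.15. MRC2, the receptor that takes up collagen fragments, was lower in theca by -1.26 ± 0.13, -0.86 ± 0.13 and -1.71 ± 0.13, and higher in tunica albuginea than in stroma close to follicles (0.85 ± 0.14, adjusted p = 0.0021). CTSK, a collagen-degrading protease of lysosomes, was instead higher in theca than in both kinds of stroma, by 1.23 ± 0.21 and 1.31 ± 0.21. Among 10 collagen receptor genes, ITGB1, the shared integrin subunit, was higher in theca by 0.83 ± 0.12 to 1.06 ± 0.12. ITGA1, its partner in binding type IV collagen, was highest in the tunica at 8.35, above stroma close to follicles by 1.25 ± 0.21 (adjusted p = 0.002), and ITGA10 was lower in theca than in tunica albuginea by -1.02 ± 0.28 (adjusted p = 0.0087).

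**Figure D5:**
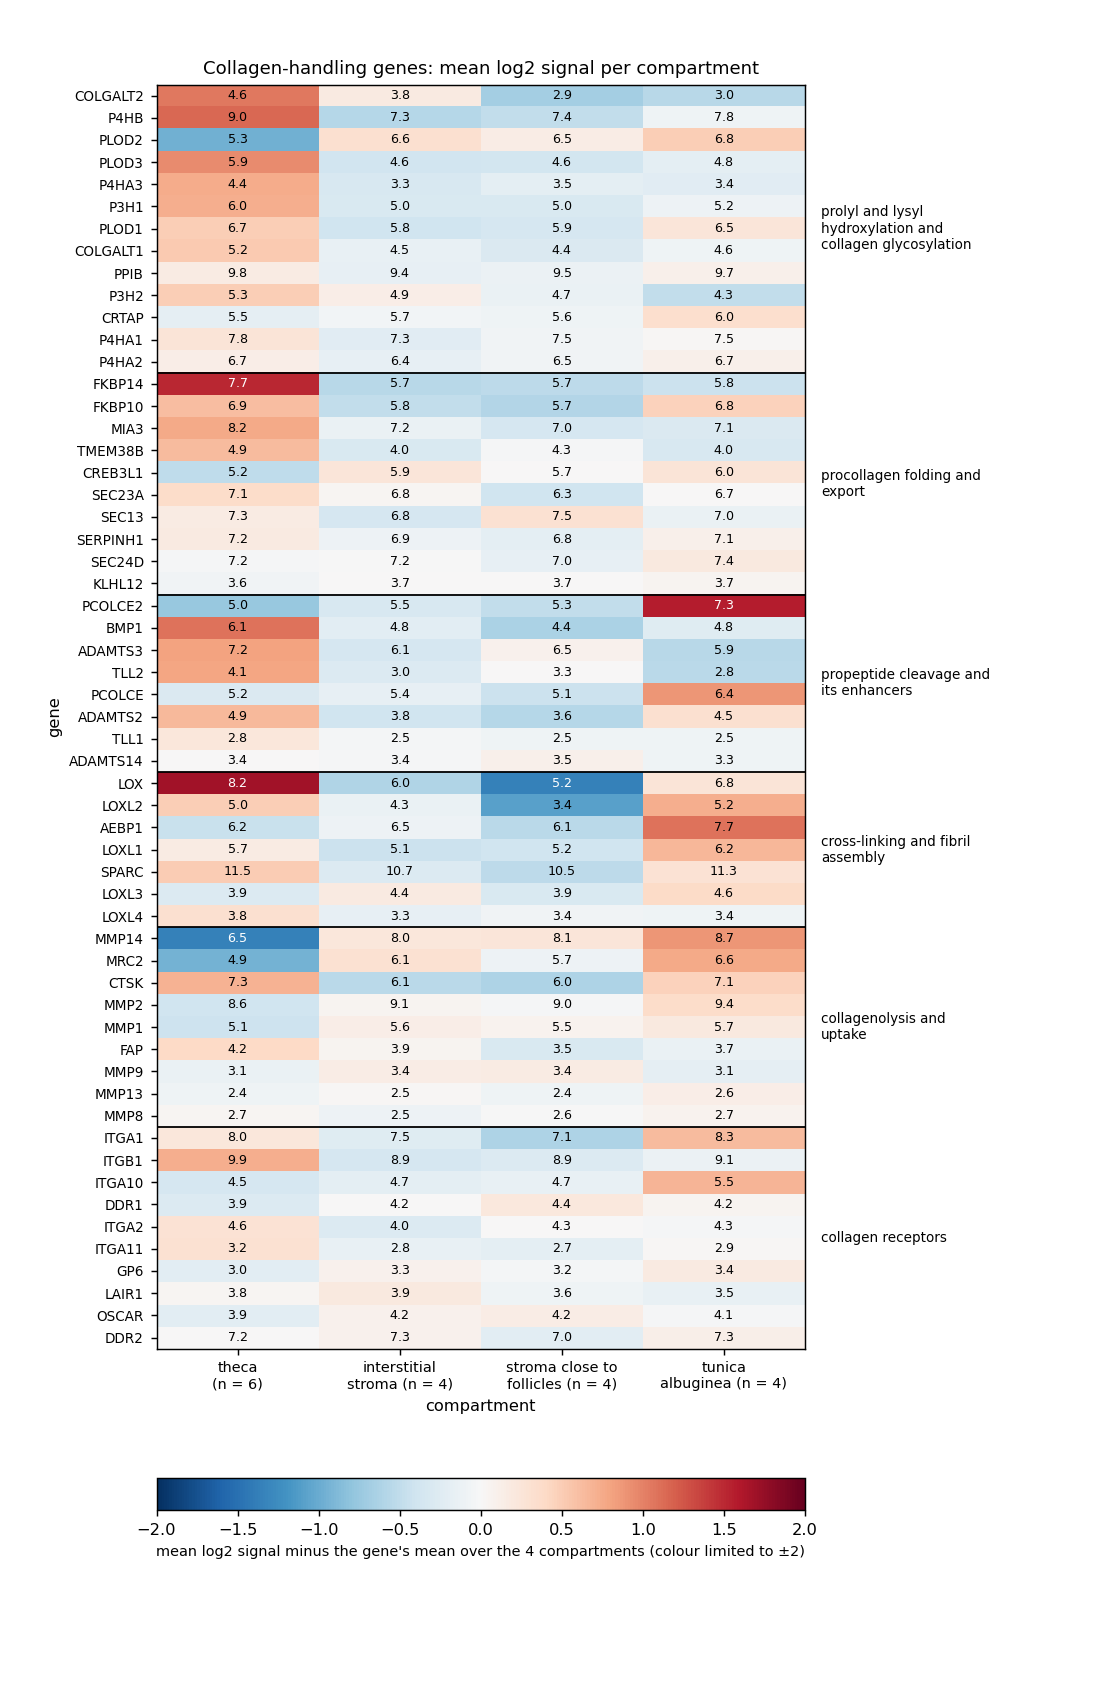
Mean log2 signal of 57 collagen-handling genes (rows, in 6 lists) in the 4 compartments (columns; printed numbers are means, colour is the deviation from the gene's mean over the compartments). FKBP14, LOX and P4HB are red in theca, PCOLCE2 and AEBP1 are red in tunica albuginea, and MMP14, MRC2 and PLOD2 are blue in theca.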

How the data were processed

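RNA of 18 tissue samples was amplified with the same whole-transcriptome kit and hybridised to single-colour arrays. The deposited values are log2 signals made with RMA and Partek 6.5, per the submitters' processing notes, for 26773 transcript clusters, rounded to 1 decimal and ranging from 1 to 13.2. Quantile normalization, a step of RMA, hides any change common to most genes. The number of arrays limits the precision.

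Members were found by symbol in the array's annotation, with the cluster of highest mean for a gene. Their symbols matched RefSeq's table through the Entrez identifier for 39 of 42 genes, and the others kept the file's name. The members, classes and gene lists were chosen with earlier results of these data known. Values are printed for up to 7 members a class called by the F test, by range of compartment means, and for up to 3 in each collagen-handling list. The array values of COL4A5 and the means of ADAMTS2 were added outside this rule. The differences of these genes were not followed under the alternatives.

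limma 3.58.1 (R 4.3.3) tested the differences, with 1 mean per compartment over all 18 arrays. Two-sided p-values were adjusted over all clusters (Benjamini-Hochberg), and an adjusted p below 0.05 counted as called. Counts at an unadjusted p below 0.05 were made for the members only, without a share of all clusters. SE is the moderated standard error, and 95% intervals are unadjusted. Replicates shared 9.12% to 14% of values exactly, and none was treated as a repeat. Alternatives were another scaling, quantile normalization again, a filter on dim clusters, a variance trend, array weights, pairs of compartments alone, the mean of a gene's clusters, a replicate block, a fold rule and leaving out each array.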

Additional observations from a re-analysis of the deposited data

Results flagged for a closer look

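Within compartments, 84 sets of array values (21 genes in 4 compartments) were screened for an array standing apart, and 8 were found. The critical value is set so that chance gives about 1 in 20, a rate that need not hold for values rounded to 1 decimal. In theca, replicate 6 was the highest array for COL12A1, at 10.3 with the others from 8.9 to 9.2, and for COL3A1, at 9.7 with the others from 8.8 to 9.1. The fibroblast list had its highest theca mean on the same array, 8.91 against 8.13 to 8.57, and its part in these values was not tested. Without that array COL3A1 was still called higher in theca against the interstitial stroma (0.88), the stroma close to follicles (1.41) and the tunica albuginea (0.76).

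In interstitial stroma, replicate 3 was the lowest array for COL14A1, at 5.6 with the others from 7 to 7.2, and for COL4A1, at 6.2 with the others at 6.6. The endothelial list was 4.56 on that array and 5.33 to 5.57 on the others of the group, and its part was not tested. Without it, theca exceeded interstitial stroma by 0.9 for COL14A1 (adjusted p = 0.0085) and by 1.58 for COL4A1 (adjusted p = 8.4e-07).

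COL5A2 was lowest in theca replicate 2, at 6 with the others from 6.5 to 6.7. COL24A1 was lowest in tunica albuginea replicate 2, at 5.3 with the others at 5.8 to 5.9. COL13A1 was lowest in interstitial stroma replicate 2, at 4.4 with the others at 4.7, and COL6A1 was highest in tunica albuginea replicate 3, at 8.9 with the others at 8.8. For COL13A1, COL6A1 and COL4A1 the other arrays had identical values at 1 decimal, so a gap of any size is flagged. For COL6A1 alone the gap was a single rounding step.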

How the results depend on the processing

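Of 126 differences of the 21 collagen genes given in full, 66 were called, and 55 of these stayed called under all 26 alternatives. Over 1716 values of called differences, 58 were no longer called and 0 changed sign. Of the 60 uncalled differences, 10 were called under some alternative. The counts of called collagen genes moved by more than 1.5 times in 3 cases. With a log2 difference of at least 1 required as well, 11 genes were counted for theca against stroma close to follicles and 12 for theca against tunica albuginea, and 2 genes were called for tunica albuginea against interstitial stroma when only those arrays were fitted. Fewer arrays then estimate the spread. Leaving out each array gave 18 to 22 genes for theca against interstitial stroma, 17 to 20 against stroma close to follicles, 19 to 21 against tunica albuginea, 4 to 5 and 6 to 8 for tunica albuginea against interstitial stroma and stroma close to follicles, 0 between the 2 kinds of stroma, and 21 to 24 by the F test. Sign changes occurred for uncalled differences near 0. Leaving out each array in turn, tunica albuginea minus interstitial stroma ranged from -0.01 to 0.29 for COL3A1 (negative without tunica replicate 2), -0.07 to 0.18 for COL5A3 (negative without tunica replicate 4, or at -0.02 without interstitial replicate 1 or 4), -0.09 to 0.01 for COL6A3 (positive without interstitial replicate 4 or tunica replicate 1) and -0.28 to 0.02 for COL4A2 (positive without interstitial replicate 2). Stroma close to follicles minus interstitial stroma ranged from -0.1 to 0.11 for COL12A1 (positive without interstitial replicate 3, or at 0.03 without stroma replicate 3) and from -0.18 to 0.07 for COL4A1 (positive without stroma replicate 3). The theca deficit of COL1A1 against tunica albuginea was called after quantile normalization again (adjusted p = 0.047; range over alternatives 0.047 to 0.5). The cause was not tested. For collagen-handling genes, the alternatives covered only 18 genes, up to 3 in each list by range of compartment means. These had 55 called differences, and 50 of 1427 values lost the call, most often ITGA1, MMP14, FKBP10 and CTSK in the tunica comparisons. Calls of the other collagen-handling genes were not followed under the alternatives.

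The replicate numbers of the labels were not taken as pairs, since the sources do not say that same-numbered arrays share animals. Same-numbered deviations correlated at 0.095 to 0.145 between tunica albuginea and interstitial stroma, with 2 of 4 pairs over 0.1. In the other comparisons the correlations lay between -0.048 and 0.076. Such values cannot show whether pools shared animals. With the number as a replicate block, on arrays numbered 1 to 4, 19, 19 and 18 collagen genes were called for theca against the interstitial stroma, the stroma close to follicles and the tunica albuginea, 5 and 8 for tunica albuginea against the 2 kinds of stroma, 0 between these, and 20 by the F test. Under this block, on fewer theca arrays, the calls of theca against tunica albuginea for COL15A1 (0.7, adjusted p = 0.077) and COL13A1 (-0.47, adjusted p = 0.088), and of theca against stroma close to follicles for ADAMTS3 (0.6, adjusted p = 0.059), were not made. Tunica calls were lost against stroma close to follicles for COL6A1 (adjusted p = 0.076) and MMP14 (0.099), and against interstitial stroma for CTSK (0.1). Tunica albuginea was newly called above stroma close to follicles for COL12A1 (adjusted p = 0.017) and COL5A1 (0.029). For COL12A1 it was also newly called above interstitial stroma (adjusted p = 0.038). Differences under 0.1 lie within the rounding of single values, and members below the array median may be background on every array.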
